A study of Mus musculus with 83 samples.

Results

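Neuregulins and ErbB receptors form a small signalling family in the brain, described here as 7 genes: the receptors Erbb4, Erbb3 and Erbb2 and the ligands Nrg1, Nrg2, Nrg3 and Nrg4. The genes were taken by symbol from a table of 48795 genes, and 7 of 7 were found. The table covers 83 RNA-seq libraries, each made from a pool of 125 neurons cut by laser capture out of stained 14 μm sections of frontal cortex from male C57BL/6 mice. The 4 neuron populations picked were parvalbumin (PV) neurons stained for Pvalb, VIP neurons stained for Vip, somatostatin (SST) neurons stained for Sst and pyramidal (PYC) neurons stained for Slc17a7. Old mice were 22 months of age and gave 12 libraries per population, and young mice were 2 months of age and gave 8 PV, 9 VIP, 9 SST and 9 PYC libraries. The mice carried no stated genotype or treatment.

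Neuregulins are made as membrane-bound precursors with an EGF-like domain, and proteases such as Bace1 and the ADAM family cut many of them so that the domain can reach a receptor. ErbB4 binds neuregulins and has its own kinase activity, ErbB3 binds neuregulins but has very weak kinase activity, and ErbB2 binds no known ligand and works as a partner of the others. In the cortex ErbB4 is known mainly from inhibitory interneurons, where it takes part in the formation and tuning of their synapses, while ErbB3 is known mainly from glia.

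The levels below are CPM, the deposited counts of a gene scaled to the library's total, and library totals ran between 1.46 M and 27.2 M counts with a median of 6.99 M. Differences are edgeR log2 fold changes with standard errors, and a gene was called at a Benjamini-Hochberg adjusted p under 0.05 over all genes tested. Markers of other cells were counted in each population, and their part in the results below was not tested. The summed level of 7 pan-GABAergic markers averaged 3611 CPM in PV, 1811 CPM in VIP, 2039 CPM in SST and 169 CPM in PYC libraries. The sum of 8 pyramidal markers averaged 1511 CPM in PV, 2981 CPM in VIP, 1893 CPM in SST and 3508 CPM in PYC libraries. The sum of 7 astrocyte markers averaged 1636 CPM in PV, 2435 CPM in VIP, 2035 CPM in SST and 2372 CPM in PYC libraries, and no marker of the 3 lists was at 0 throughout any population. In 6 libraries mitochondrial transcripts took under 3% of counts. Since the material is bulk RNA, fewer cells of a type in a pool and less RNA per cell cannot be told apart.

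A pair of promoters is printed because one belongs to the member that differed most between the populations and the other to the ligand with the most even level. Erbb4 (ENSMUSG00000062209) lies on the minus strand at chr1:68032186-69108059 of GRCm38, and Nrg3 (ENSMUSG00000041014) lies on the minus strand at chr14:38368952-39473088. Each sequence runs 5′ to 3′ on the gene's own strand, with 250 bases before the RefSeq start in lower case and the first 50 transcribed bases in capitals, from RefSeq on GRCm38.p6 (chr1:69108010-69108309 for Erbb4 and chr14:39473039-39473338 for Nrg3).
Erbb4: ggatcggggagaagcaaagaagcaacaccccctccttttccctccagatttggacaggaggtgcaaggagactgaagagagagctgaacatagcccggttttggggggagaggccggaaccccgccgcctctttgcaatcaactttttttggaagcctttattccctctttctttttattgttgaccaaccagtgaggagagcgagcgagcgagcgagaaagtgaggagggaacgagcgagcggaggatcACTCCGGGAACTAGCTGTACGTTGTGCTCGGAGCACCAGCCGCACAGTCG
Nrg3: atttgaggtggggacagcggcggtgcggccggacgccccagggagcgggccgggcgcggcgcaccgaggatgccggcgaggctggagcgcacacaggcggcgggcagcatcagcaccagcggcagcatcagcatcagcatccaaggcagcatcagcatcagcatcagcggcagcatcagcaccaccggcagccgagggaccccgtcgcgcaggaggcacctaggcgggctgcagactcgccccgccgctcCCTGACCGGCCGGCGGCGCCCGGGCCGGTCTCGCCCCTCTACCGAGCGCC
The Erbb4 window had 55.3% G and C bases and 17 CpG pairs, and the Nrg3 window had 74.3% and 36 CpG pairs, while the median over 32851 promoter windows of the same length was 52.7% and 7 pairs. RefSeq windows of 4 members were examined, those of Erbb4, Erbb2, Nrg3 and Nrg4, and windows of the other members were not. The homeodomain core TAATTA, read on both strands, was in none of the 4 and in 5.29% of all windows. The TATA box TATAAA, likewise read on both strands, was in none of the 4 and in 13.6% of all windows. The absence of these letters says nothing about binding.

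Erbb4 was the one member called in all 6 pairs of populations, and its mean level fell into the order PV, VIP, SST and PYC. In old PV libraries Erbb4 had a lowest value of 733 CPM, a median of 996 CPM and a highest value of 1150 CPM, and in young PV libraries these were 892, 944 and 1190 CPM. In old VIP libraries they were 420, 591 and 906 CPM, and in young VIP libraries 357, 617 and 735 CPM. PV libraries were thus high at both ages, and VIP libraries lay mostly below them, with 0 of 21 VIP libraries above the highest PV library. In old SST libraries Erbb4 had a lowest value of 157 CPM, a median of 229 CPM and a highest value of 409 CPM, and in young SST libraries 63.3, 242 and 286 CPM. In old PYC libraries the values were 3.92, 49.5 and 75.5 CPM, and in young PYC libraries 12.8, 28.0 and 70.8 CPM. Every PYC library held some Erbb4 counts, and 20 of 21 SST libraries lay above the highest PYC library.

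**Figure D1:**
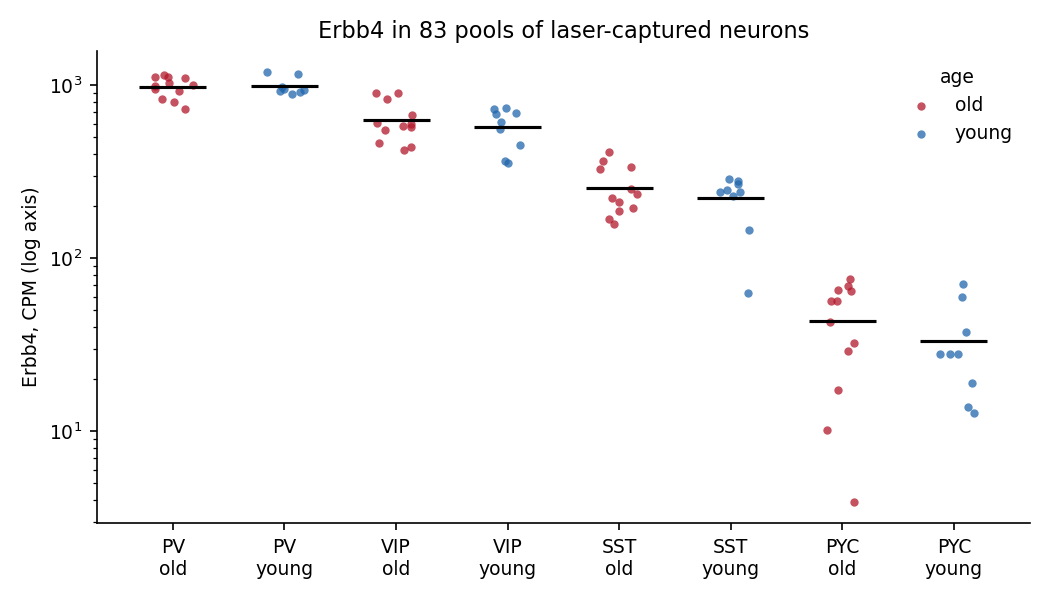
Erbb4 level in CPM (log axis) in each of the 83 libraries, by neuron type and age; points are libraries and lines are group means. PV libraries lie between 733 and 1190 CPM and PYC libraries between 3.92 and 75.5 CPM, with the VIP and SST means between them and old and young libraries overlapping in every type.

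Over both ages Erbb4 averaged 985 ± 125 CPM in PV libraries (SD, n = 20) and 39.1 ± 22.8 CPM in PYC libraries (SD, n = 21), a log2 fold change of 4.72 ± 0.23 (SE) or 26.3-fold (edgeR adjusted p = 1.96e-29). The lowest PV library was above the highest PYC library. Erbb4 was the only member called in PV over PYC, where 16.8% of all genes tested were called. VIP libraries averaged 606 ± 159 CPM (SD, n = 21), which was 3.89 ± 0.22 above PYC on the log2 scale (edgeR adjusted p = 3.48e-25), and again the ranges did not overlap. In this pair 9.46% of genes were called. The share of all genes whose ranges did not overlap was not computed for any pair. SST libraries averaged 242 ± 79.0 CPM (SD, n = 21), a log2 fold change of 2.57 ± 0.20 over PYC (edgeR adjusted p = 2.21e-17), in a pair in which 10.8% of genes were called.

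The interneuron populations also differed from each other in Erbb4. PV was above SST by 2.15 ± 0.20 on the log2 scale (edgeR adjusted p = 5.19e-14), with no overlap between 733 CPM, the lowest PV library, and 409 CPM, the highest SST library; 10.9% of genes were called in this pair. VIP was above SST by 1.32 ± 0.19 (edgeR adjusted p = 5.24e-07), with 19 of 21 VIP libraries above the highest SST library, in a pair with 6.63% of genes called. The sum of 5 SST markers was 1742 CPM in old VIP replicate 9 and 1892 CPM in old VIP replicate 11. Its median was 292 CPM over the VIP libraries, and its mean was 3272 CPM over the SST libraries. The type pairs were not refitted without both of these VIP libraries. VIP was below PV by the smallest step, a log2 fold change of -0.83 ± 0.19 (edgeR adjusted p = 0.00101), and 16.8% of genes were called in VIP over PV. In old libraries alone this step was -0.67 and was not called (edgeR adjusted p = 0.115). Every neighbour in the order therefore differed with all libraries in the fit.

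All 7 pan-GABAergic markers rose with Erbb4 in each of the 3 interneuron populations over PYC. The share of all genes called was 16.8% in PV over PYC, 9.46% in VIP over PYC and 10.8% in SST over PYC. The populations were picked by stain as interneurons or pyramidal cells, so the joint rise adds nothing about Erbb4. In VIP over SST, where Erbb4 rose, 1 of them rose and 2 fell (6.63% of all genes were called there). In PV over SST, where Erbb4 rose, 2 rose and none fell (10.9%). In VIP over PV, where Erbb4 fell, 1 rose and 3 fell (16.8%). A library's Erbb4 CPM divided by its Gad1 CPM, the gene of a GABA-making enzyme, had a median of 0.566 in PV, 1.17 in VIP, 0.422 in SST and 1.07 in PYC libraries. By its median this ratio put VIP above PV and thus gave another order than the Erbb4 level. Its ranges overlapped, at 0.405 to 0.831 in PV, 0.530 to 2.20 in VIP, 0.236 to 1.07 in SST and 0.102 to 5.26 in PYC. Gad1 itself averaged 1734 CPM in PV, 517 CPM in VIP, 514 CPM in SST and 40.9 CPM in PYC libraries. Within the 21 PYC libraries Erbb4 had a Pearson r of 0.16 with the pan-GABAergic sum (permutation p = 0.481, adjusted p = 0.964 over 7 relations, Spearman rho 0.21 with permutation p = 0.370 and adjusted p = 0.966). Without the 2 libraries farthest from the median of that sum r was 0.37. In SST libraries Erbb4 had a Pearson r of 0.01 with the sum of 5 PV markers (permutation p = 0.964). In VIP libraries that r was -0.06 (permutation p = 0.782), with an adjusted p of 0.964 for both. Over all 83 libraries, whose populations differ, the genes most like Erbb4 in log2 CPM included Gad1 (Pearson r = 0.90), Btbd11 (0.85), Dner (0.84) and Rbms3 (0.82). Each of these values comes from the same libraries and so shares their depth and population.

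Nrg1, the ligand best known for its part in synapses and myelination, was at lower levels in VIP libraries than in SST and PYC libraries. In old VIP libraries Nrg1 had a lowest value of 0 CPM, a median of 11.6 CPM and a highest value of 63.7 CPM, and in young VIP libraries 0, 12.4 and 62.2 CPM. In old PYC libraries it had 9.24, 49.8 and 92.1 CPM, and in young PYC libraries 12.8, 26.5 and 59.9 CPM. The VIP and PYC ranges overlapped, and 2 VIP libraries had no Nrg1 count. VIP averaged 16.2 ± 18.4 CPM (SD, n = 21) and PYC 42.0 ± 22.8 CPM (SD, n = 21), a log2 fold change of -1.36 ± 0.42 (edgeR adjusted p = 0.0201) in a pair in which 9.46% of genes were called. In young libraries alone the VIP over PYC difference was -0.998 and was not called (edgeR adjusted p = 0.700).

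Nrg1 had a log2 fold change of 0.03 ± 0.41 in SST over PYC, with a 95% interval of the fold change of 0.587 to 1.78, and was not called. Old SST libraries had a lowest value of 2.36 CPM, a median of 35.1 CPM and a highest value of 116 CPM, and young SST libraries had 11.8, 41.2 and 80.8 CPM. VIP, at 16.2 ± 18.4 CPM (SD, n = 21), was below SST, at 41.4 ± 27.2 CPM (SD, n = 21), with a log2 fold change of -1.39 ± 0.42 (edgeR adjusted p = 0.0237). This call ended without old SST replicate 5, the library at 116 CPM (log2 fold change -1.23, edgeR adjusted p = 0.0564), and in old or young libraries alone. PV libraries lay between, with 23.7 ± 16.6 CPM (SD, n = 20), and none of the 3 pairs with PV was called for Nrg1. The order of means was PYC, SST, PV and VIP, and no pair of neighbours in it was called.

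Nrg2, another neuregulin ligand of ErbB4, had its highest values in VIP libraries, which also had the largest SD, while relative to the mean PYC libraries varied more (coefficient of variation 93.5% in PYC and 88.5% in VIP). Old VIP libraries had a lowest value of 0 CPM, a median of 15.8 CPM and a highest value of 51.4 CPM, and young VIP libraries had 0.186, 27.8 and 69.7 CPM. Old PYC libraries had 0, 2.08 and 15.99 CPM, and young PYC libraries had 0.121, 10.99 and 16.3 CPM. The ranges overlapped at the low end, while 11 of 21 VIP libraries were above the highest PYC library. VIP averaged 23.3 ± 20.7 CPM and PYC 6.38 ± 5.96 CPM (SD, n = 21 each), a log2 fold change of 1.81 ± 0.60 (edgeR adjusted p = 0.0371). This call ended without the libraries under 3% mitochondrial counts (log2 fold change 1.63, edgeR adjusted p = 0.120) and with limma-voom (log2 fold change 1.60, adjusted p = 0.179). It also ended with the F number of the library titles as a factor (edgeR adjusted p = 0.0662) and in old (0.221) or young libraries alone (0.514). Leaving out any 1 of 9 libraries ended it as well, namely old VIP replicates 5, 6 and 9, young VIP replicates 1, 3 and 8 and young PYC replicates 3, 4 and 5 (edgeR adjusted p up to 0.0729). PV averaged 14.6 ± 8.88 CPM (SD, n = 20) and SST 13.8 ± 8.92 CPM (SD, n = 21), and no pair other than VIP over PYC was called for Nrg2. The order was VIP, PV, SST and PYC, and no pair of neighbours was called.

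Nrg3, a ligand of ErbB4 found mainly in the nervous system, was present in 83 of 83 libraries at an even level. It averaged 116 ± 57.7 CPM in PV (SD, n = 20), 136 ± 43.4 CPM in VIP, 125 ± 46.6 CPM in SST and 130 ± 43.3 CPM in PYC libraries (SD, n = 21 each). The ranges of the 4 populations overlapped, and the highest value, 335 CPM, was in an old PV library. None of the 6 pairs was called. The 95% interval of the fold change was 0.704 to 1.10 for PV over PYC, 0.805 to 1.25 for VIP over PYC and 0.743 to 1.15 for SST over PYC, so a difference of 2-fold lies outside all 3.

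**Figure D2:**
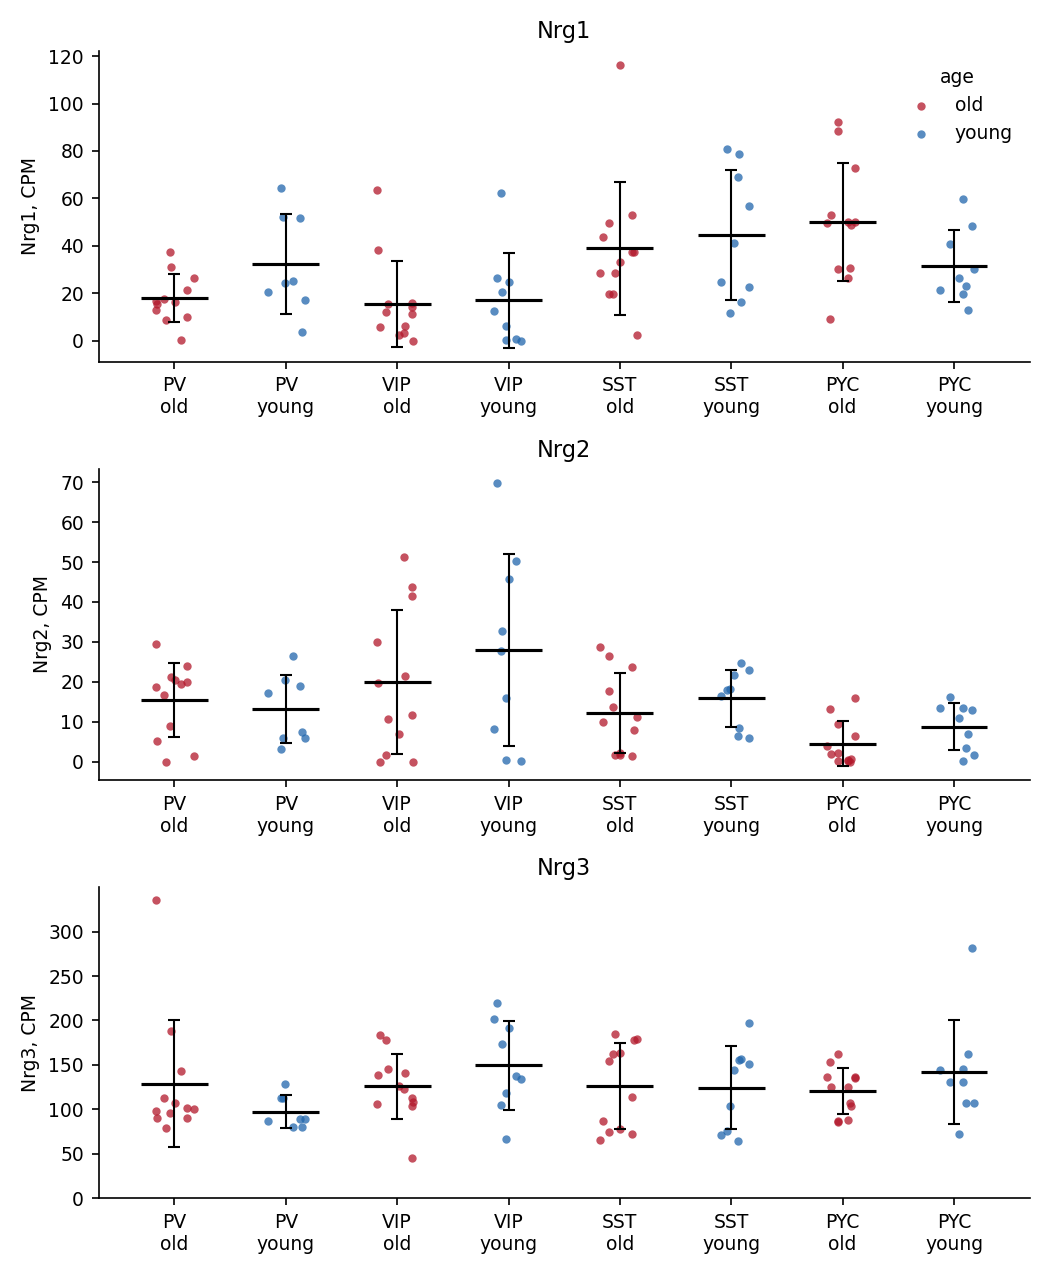
Nrg1, Nrg2 and Nrg3 levels in CPM by neuron type and age; points are libraries, lines are group means and bars are ± SD. Nrg3 lies at 116 to 136 CPM on average in all 4 types, while Nrg1 is lowest in VIP libraries and Nrg2 is lowest in PYC libraries.

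**Figure D3:**
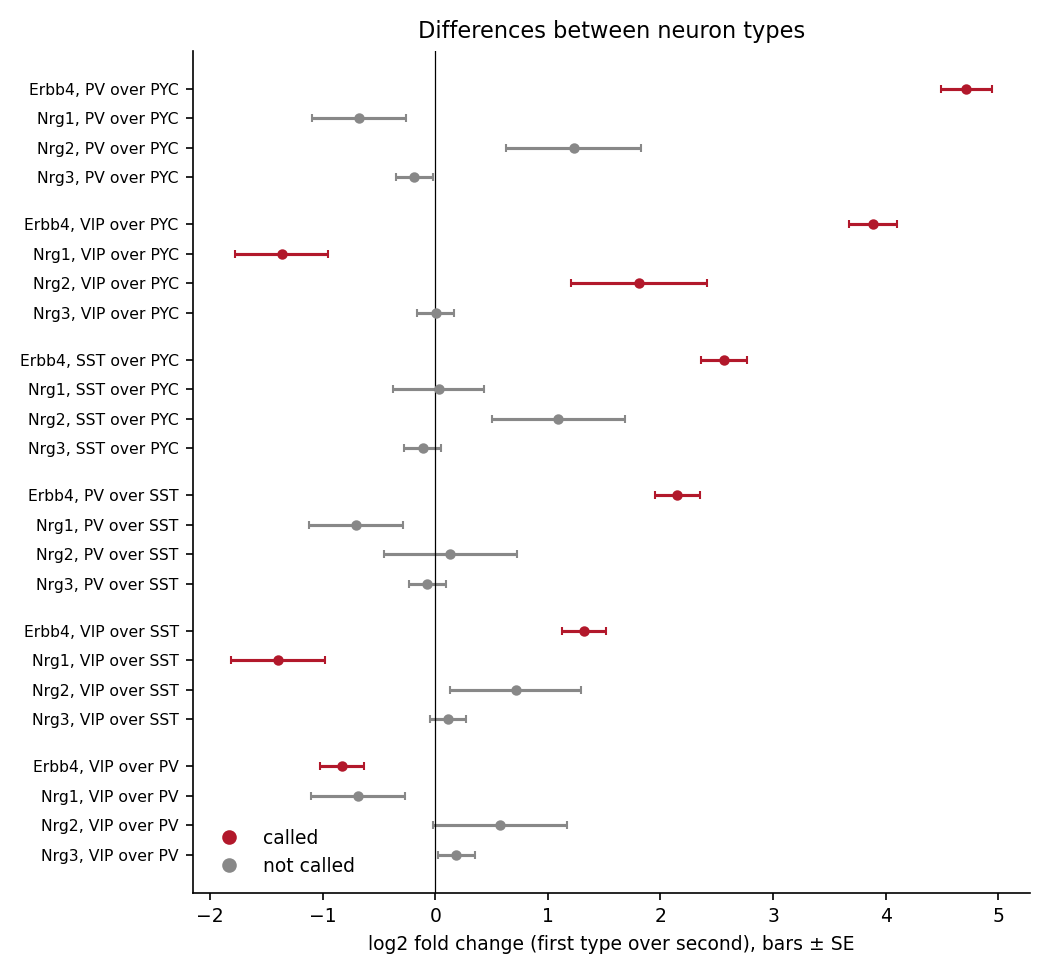
Log2 fold changes of Erbb4, Nrg1, Nrg2 and Nrg3 between neuron types (first type over second), with bars of ± SE; red points were called at an adjusted p under 0.05. Erbb4 was called in all 6 pairs, Nrg1 in VIP over PYC and VIP over SST, Nrg2 in VIP over PYC and Nrg3 in none.

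The other members were sparse. Erbb3, the receptor with little kinase activity of its own, had a count in 10 of 20 PV, 12 of 21 VIP, 16 of 21 SST and 15 of 21 PYC libraries, with medians of 0.141, 9.34, 2.90 and 0.820 CPM in that order. Its highest library was an old VIP library at 49.6 CPM. Oligodendrocytes and their precursors express Erbb3, and 10 oligodendrocyte markers summed on average to 600 CPM in PV, 736 CPM in VIP, 1003 CPM in SST and 756 CPM in PYC libraries. The sum of 6 oligodendrocyte precursor markers averaged 66.8 CPM in PV, 104 CPM in VIP, 94.3 CPM in SST and 73.7 CPM in PYC libraries. Mean Erbb3 was 2.68 CPM in PV, 10.9 in VIP, 7.19 in SST and 4.50 in PYC. This is the order of the precursor sum but not of the oligodendrocyte sum, which was highest in SST libraries. The relation of Erbb3 to the precursor sum within populations was not tested. Within populations Erbb3 had a Pearson r with the oligodendrocyte sum of 0.33 in PV, 0.05 in VIP, -0.10 in SST and 0.23 in PYC libraries, with permutation p of 0.155, 0.832, 0.660 and 0.317 and an adjusted p of 0.964 for each. Spearman's rho was 0.19, 0.08, -0.01 and 0.32, with permutation p of 0.414, 0.743, 0.953 and 0.154 and adjusted p of at least 0.966. Without the 2 libraries farthest from the median of the sum, r was 0.40 in PV, -0.26 in VIP, -0.16 in SST and 0.38 in PYC libraries.

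Erbb2, the receptor without a known ligand, had a count in 27 of 83 libraries and a median of 0 CPM in each population. Its highest value, 21.2 CPM, was in old SST replicate 1, which also had the highest Erbb3 value of the SST libraries at 27.5 CPM. Nrg4, a ligand of ErbB4 known best from fat and liver, had a count in 11 of 20 PV, 14 of 21 VIP, 6 of 21 SST and 11 of 21 PYC libraries, and its highest library was an old PYC library at 27.4 CPM. Erbb3, Erbb2 and Nrg4 were called in none of the 6 pairs. Erbb2 had a log2 fold change of 2.89 ± 1.30 in SST over PYC (edgeR unadjusted p = 0.0277, adjusted p = 0.162) and of 2.88 ± 1.30 in VIP over PYC (unadjusted p = 0.0284, adjusted p = 0.173). Nrg4 overlaps the antisense gene Fbxo22, which averaged 22.9 CPM; the kit marks strand, but no source at hand says whether the counting used it.

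Levels of different members are compared per kilobase of exon. On that scale Erbb4 was the highest of the 7 in PV (79.8 ± 10.1 CPM per kb), VIP (49.0 ± 12.9) and SST libraries (19.6 ± 6.40), while in PYC libraries Nrg3 was the highest at 19.0 ± 6.35 and Erbb4 the third at 3.17 ± 1.85 (SD over libraries). In SST libraries Nrg3 was close behind at 18.4 ± 6.84. In the young SST libraries alone Nrg3 came first at 18.25 and Erbb4 second at 18.02, and in the young PYC libraries alone Erbb4 was the fourth at 2.68, with Nrg2 the third at 2.81. Over both ages, with the longest transcript as the length, Nrg3 came first in SST libraries, at 31.2 against 20.1 for Erbb4. Erbb4 made up 99.3% of the summed per-length level of the 3 receptors in PV, 95.6% in VIP, 92.4% in SST and 79.2% in PYC libraries. Nrg3 made up 69.7% of the summed level of the 4 ligands in PV, 67.5% in VIP, 67.9% in SST and 73.8% in PYC libraries. Nrg2 was the second ligand in VIP libraries, with 25.1%, and Nrg1 was the second in PYC libraries, with 15.7%. Erbb4, Nrg1 and Nrg3 each span about a megabase of mostly intron, and the libraries were made from total RNA, so per-length levels depend on whether intronic reads were counted, which the sources used here do not state.

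**Figure D4:**
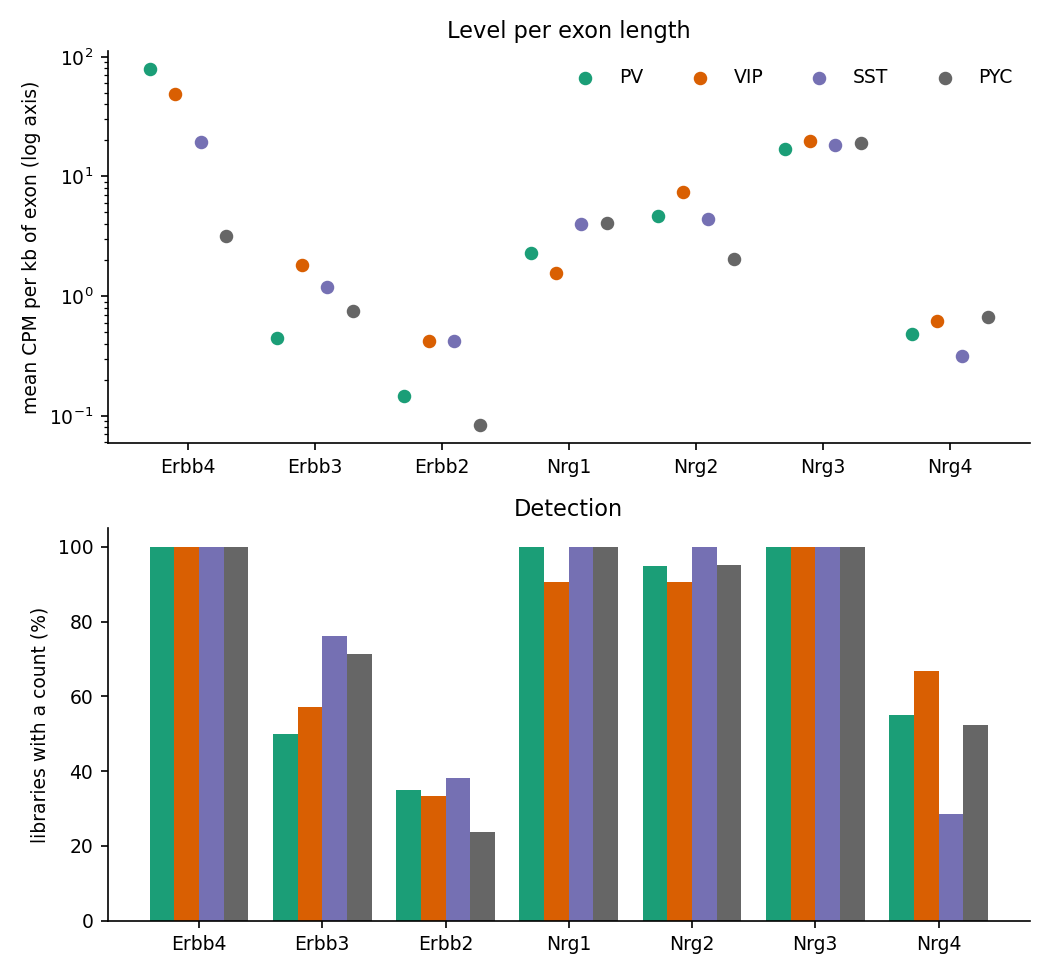
Top, mean CPM per kb of exon of each member in each neuron type (log axis); bottom, percentage of libraries with at least 1 count. Erbb4 and Nrg3 have counts in all libraries, Erbb2 in 27 of 83, and the Erbb4 points spread between 79.8 in PV and 3.17 in PYC libraries.

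Age made no called difference in any member. Erbb4 averaged 980 ± 135 CPM in old and 994 ± 116 CPM in young PV libraries, a log2 fold change of -0.05 ± 0.10, with a 95% interval of the fold change of 0.844 to 1.10. The fold change of old over young was 0.19 ± 0.17 (log2) in VIP, 0.22 ± 0.20 in SST and 0.42 ± 0.44 in PYC libraries, and the old and young ranges overlapped in each. In PYC libraries, where Erbb4 is low, the 95% interval of the fold change was 0.741 to 2.42. No Erbb4 difference was called, and edgeR called 0 of all genes tested in PV, VIP, SST or PYC, a share of 0%. At an unadjusted p under 0.05 the share of all genes was 2.32% in PV, 2.98% in VIP, 2.87% in SST and 2.91% in PYC.

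The filter on low counts let 4 members be tested in PV and PYC (Erbb4, Nrg1, Nrg2 and Nrg3), 5 in SST (with Erbb3) and 6 in VIP (with Erbb3 and Nrg4), and Erbb2 in none. None of these 19 tests had an unadjusted edgeR p under 0.05. Nrg1 had a log2 fold change of 0.69 ± 0.38 in PYC libraries (50.04 ± 24.8 CPM in old, n = 12, and 31.4 ± 15.3 CPM in young, n = 9; SD) and of -0.88 ± 0.55 in PV libraries (17.9 ± 10.1 CPM in old, n = 12, and 32.4 ± 21.1 CPM in young, n = 8; SD). Nrg4 in VIP libraries averaged 5.85 ± 6.23 CPM in old and 0.942 ± 1.66 CPM in young (SD), with counts in 10 of 12 old and 4 of 9 young libraries. Its log2 fold change of 2.58 ± 1.39 did not pass (edgeR unadjusted p = 0.0695). limma-voom and DESeq2 also called 0 members in each type, with 1 member in VIP at an unadjusted p under 0.05 by either tool and 0 in the other types. With the F number as a factor, edgeR had 1 such member in PV and 1 in VIP. A single edgeR fit of all groups had 1 in PYC, and 0 members were called in either setting.

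**Figure D5:**
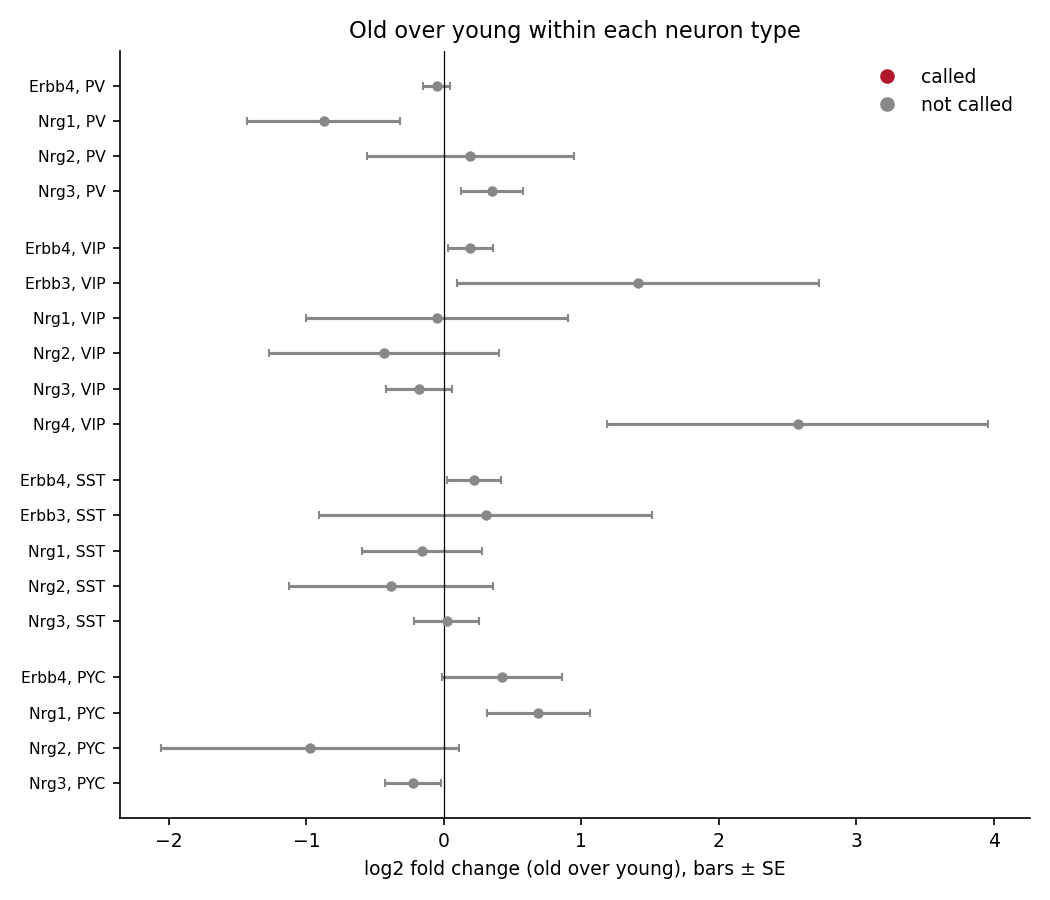
Log2 fold changes of old over young for the members tested in each neuron type, with bars of ± SE; no member was called. Erbb4 lies between -0.05 and 0.42, and the sparse genes Erbb3 and Nrg4 have the widest bars.

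The difference between old and young was also compared between the types in an interaction test over all 8 groups, in which 3.13% of genes were called and 0 of 7 members. limma-voom called 21 genes and DESeq2 1 gene in that test, and 0 members each, and edgeR called 1 gene when genes below the median abundance were left out. No member had an unadjusted p under 0.05; the smallest was that of Erbb2 (edgeR p = 0.0986, adjusted p = 0.555), and Erbb4 had an adjusted p of 1.

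Genes that work with the family were described through 5 lists. Of 6 genes for synaptic partners of ErbB4, 1 rose and 2 fell in PV over PYC, against 16.8% of all genes, with a list median log2 fold change of -0.12 beside -0.04 over all genes. Kalrn, whose product remodels dendritic spines, averaged 607 ± 120 CPM in PV (SD, n = 20) and 1541 ± 480 CPM in PYC libraries (SD, n = 21), and fell by 1.33 on the log2 scale (SE 0.09). Dlg4, the gene of the scaffold PSD-95, also fell in PV over PYC (-0.59 ± 0.10), and Erbin, which binds ErbB2, rose (1.44 ± 0.26). In SST over PYC 2 rose and 2 fell (10.8% of all genes called), in VIP over PYC 1 rose and 1 fell (9.46%), and in PV over SST 1 fell (10.9%). In VIP over PV 3 rose (16.8% of all genes called), among them the scaffold gene Dlg3 (0.56 ± 0.14). In VIP over SST none was called (6.63%). Erbin rose in VIP over PYC (1.12 ± 0.25) and in SST over PYC (1.08 ± 0.25), and Kalrn fell in both (-0.76 ± 0.09 and -0.84 ± 0.09).

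Of 44 genes for signalling downstream of ErbB, 3 rose and 6 fell in PV over PYC, which is 9 of 44 against 16.8% of all genes. Akt1, a survival kinase, rose (1.11 ± 0.18), as did Sos1, an activator of Ras (0.95 ± 0.21). Map2k1, a kinase of the MAPK cascade, fell (-1.27 ± 0.21). In VIP over PV 6 rose and 4 fell (16.8% of all genes called), and in SST over PYC 1 rose and 3 fell (10.8%). In PV over SST 2 rose and 1 fell (10.9%), in VIP over PYC 1 rose and 1 fell (9.46%), and in VIP over SST none was called (6.63%). The list medians stayed between -0.12 and 0.15 on the log2 scale in the 6 pairs, and those of all genes between -0.08 and 0.10.

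Of 12 neuregulin-cleaving proteases, 1 rose and 1 fell in PV over PYC, 1 rose and 1 fell in VIP over PV, and none was called in the other 4 pairs. In both pairs 2 of 12 is close to the 16.8% of all genes called there. Bace1, the protease that cuts Nrg1, averaged 143 ± 38.8 CPM in PV (SD, n = 20) and 103 ± 30.1 CPM in PYC libraries (SD, n = 21) and rose by 0.53 ± 0.17 (log2). Adam19, another sheddase, fell in PV over PYC (-1.20 ± 0.39). Of 12 genes for ErbB turnover and inhibitors, 3 rose and 1 fell in PV over PYC, against 16.8% of all genes. The deubiquitinase gene Usp8 rose (0.72 ± 0.19), the ubiquitin ligase gene Wwp1 rose (0.85 ± 0.28) and the ligase gene Nedd4l fell (-0.99 ± 0.16). The third that rose was Lrig3, which was at 0 in 5 of 20 PV and 13 of 21 PYC libraries (edgeR adjusted p = 0.0453). In VIP over PV 1 rose and 2 fell (16.8% of all genes), in PV over SST 1 rose and 1 fell (10.9%), in VIP over PYC 1 fell (9.46%), and in SST over PYC and VIP over SST none was called.

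Among 8 genes for other EGF-family ligands and Egfr, 5 passed the filter. Egfr, the receptor of EGF, averaged 148 ± 76.9 CPM in VIP (SD, n = 21) and 5.59 ± 13.2 CPM in PYC libraries (SD, n = 21), and was called in VIP over PYC (log2 fold change 5.04 ± 0.82), in VIP over PV (4.98 ± 0.86) and in VIP over SST. Every VIP library held Egfr counts, with a lowest value of 21.2 CPM, while 6 of 20 PV, 7 of 21 SST and 5 of 21 PYC libraries had none. Astrocytes express Egfr, and the astrocyte sum averaged 2435 CPM in VIP, 1636 CPM in PV, 2035 CPM in SST and 2372 CPM in PYC libraries. Of 7 astrocyte markers 1 rose in VIP over PV (16.8% of all genes called), 1 rose in VIP over SST (6.63%) and none was called in VIP over PYC (9.46%). Betacellulin, encoded by Btc, was listed at 0 in 20 of 20 PV, 19 of 21 VIP, 17 of 21 SST and 19 of 21 PYC libraries, and so no fold is given. It was nevertheless called lower in PV over PYC (edgeR adjusted p = 0.000454), PV over SST (0.00465) and VIP over PYC (0.0360), calls that rest on the few libraries with a count, 2 VIP, 4 SST and 2 PYC. Egfr and Btc were the only genes called in the 5 tested of this list. Of the 5, 2 were called in VIP over PYC, where 9.46% of all genes were called. In PV over PYC and VIP over PV 1 was called each, against 16.8% of all genes. In PV over SST 1 was called (10.9% of all genes), in VIP over SST 1 (6.63%) and in SST over PYC none (10.8%). In the age comparisons and in the interaction test none of the genes in the 5 lists was called.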

How the data were processed

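Total RNA of 83 pools of laser-captured neurons was sequenced from a stranded low-input kit, per the labels' protocols, and the submitters' processing notes name the aligner HISAT2 and the build GRCm38. No source at hand names the counting tool, the annotation or the strand setting. The authors deposited raw counts per Ensembl gene for each library. Of 48795 genes, 48349 were matched to a symbol. Exon lengths came from GENCODE annotation on GRCm38.

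Counts were tested with edgeR 4.0.16 (TMM scaling, filterByExpr with a minimum count of 10, robust quasi-likelihood F-test) in R 4.3.3. Type pairs and the interaction used 1 fit of all 8 groups, and age was fitted within each type. Standard errors were derived from the log2 fold change and its F statistic. Correlations over all libraries used log2 CPM with a prior count of 2. Those within a population, where a p is given, used CPM without a log and 100000 permutations. On simulated counts the fit of all groups made more false calls than its threshold allows, nearly all of them among genes below the median abundance, so calls of sparse genes and shares over all genes in the pairs and the interaction are less certain. Erbb4, Nrg1, Nrg2 and Nrg3 are above that median. Alternatives were DESeq2 1.42.0 and limma 3.58.1 (voom with quality weights), other scaling, filters and covariates, subsets of libraries, and each library left out in turn. The last was chosen for the type pairs after seeing the data, and was run for the 3 pairs with VIP.

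All 7 members, and from each of the 5 lists up to 4 genes called in the most pairs, were named, and up to 5 genes most like a member. The members and lists were chosen with earlier results of these data known. No group had more libraries than the study has mice of that age, but the labels do not tie pools to mice, so pools of different types may share a mouse, no mouse block could be fitted, and p-values measure the spread between these libraries. Totals of 1.46 M to 27.2 M counts set the precision, and sparse genes are limited by counting error.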

Additional observations from a re-analysis of the deposited data

Results flagged for a closer look

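In 7 of 28 combinations of a member with a young group of 8 or 9 libraries, examined by Dixon's criterion at 95%, 1 library stood above the others of its group. Chance flags about 1 in 20 groups of normally distributed values, and these are raw CPM of genes that were often at 0, for which that share does not hold. Erbb3 was at 23.4 CPM in young PV replicate 6, with 6.57 CPM in the next library, and at 27.2 CPM in young PYC replicate 9, with 8.22 CPM in the next. Erbb2 was at 1.11 CPM in young PV replicate 7, the only library of its group with a count. Nrg1 was at 62.2 CPM in young VIP replicate 6, with 26.3 CPM in the next. Nrg4 was at 7.48 CPM in young PYC replicate 5, with 2.77 CPM in the next, and at 18.1 CPM in young SST replicate 1, with 4.42 CPM in the next. Nrg3 was at 282 CPM in young PYC replicate 2, with 162 CPM in the next, and this library is one of the 6 with under 3% mitochondrial counts. Groups of 12 libraries were not examined in this way.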

How the results depend on the processing

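Erbb4 kept its direction in all 6 pairs under each of 10 alternatives, with PV over PYC between 4.46 and 4.98 on the log2 scale, and lost 1 call, VIP over PV in old libraries only (-0.67), where 0 members were called. In VIP over PYC, young libraries alone left 1 member called, and Nrg1 was at -0.998. Nrg2 in that pair was at 1.63 without the libraries low in mitochondrial counts, 1.85 with the titles' F number as a factor, 2.08 in old and 1.55 in young libraries, and 1.60 with limma-voom, none of them called. In VIP over SST 1 member was called in old and 1 in young libraries alone, with Nrg1 at -1.33 and -1.45. Leaving out 1 library gave Nrg1 VIP over SST values of -1.68 to -1.23 with 1 lost call, and Nrg2 VIP over PYC values of 1.66 to 2.00 with 9 lost calls.

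Values that turned in sign were called neither before nor after. In PV over PYC these were Nrg1 in young libraries (0.084) and Nrg3 in old libraries (0.078). In SST over PYC these were Nrg1 with the F number (-0.20), in old libraries (-0.40) and with limma-voom (-0.23), and Nrg3 with limma-voom (0.0016). In VIP over PYC Nrg3 was at -0.0086 with the library total as a covariate, -0.0054 with the F number and -0.011 in young libraries. In PV over SST Nrg2 was at -0.28 with the F number and -0.17 in young libraries, and Nrg3 at 0.090 in old libraries. In VIP over PV Nrg2 was at -0.16 with limma-voom and Nrg3 at -0.047 in old libraries, and in VIP over SST Nrg2 was at -0.060 with limma-voom. For age, Nrg2 in PV was at -0.10 with the F number and -0.25 with limma-voom, and Erbb3 in SST at -1.55 and -0.14. Nrg1 in VIP was at 0.23 without low-mitochondrial libraries, 0.28 with limma-voom and 0.047 without the 2 old VIP libraries over 300 CPM of Sst, and Nrg2 in VIP at 0.048 without low-mitochondrial libraries. With 1 library left out, age values ran between -0.070 and 0.81 for Erbb3 in SST, -0.49 and 0.52 for Nrg1 in VIP, and -0.065 and 0.12 for Nrg3 in SST.

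Counts over all genes depended on the filter and the number of libraries. With no filter 5367, 4749, 4768, 3960, 5946 and 4250 genes were called in PV over PYC, SST over PYC, VIP over PYC, PV over SST, VIP over PV and VIP over SST, in that order. With genes below the median abundance left out these were 2101, 1265, 1115, 1198, 2017 and 666, in old libraries 1433, 838, 610, 743, 1246 and 277, and in young libraries 1180, 546, 466, 529, 1106 and 208. The interaction called 7680 genes with no filter, 1 without genes below the median abundance, 21 with limma-voom and 1 with DESeq2. For age, no filter gave 6505 genes in PYC, 6355 in PV, 5734 in SST and 7117 in VIP, where 0 members were called. Fewer libraries or genes enter the subsets; the cause of the other changes was not tested. A single fit of all groups called 13 genes in PYC and 1 in PV, limma-voom 2 in PYC, 2 in PV and 1 in SST, and DESeq2 2 in PV and 1 in SST. With the longest transcript in place of the exon length, Nrg1, Nrg3 and Nrg4 levels per kb were higher by more than the spread between libraries in most groups, while the order of types within a gene is not affected. No paired analysis was possible because replicate numbers were given in accession order and the labels do not tie libraries to mice.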
